A study of Mus musculus with 2 samples.

Results

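The genes examined here encode the granule proteases of mouse mast cells and basophils, together with histidine decarboxylase, the enzyme that makes histamine. The set was drawn up as 10 gene symbols and was chosen by gene family with the differences between these arrays already known; the probe set of a gene was selected on the highest mean of both deposited values. It holds the carboxypeptidase gene Cpa3, the chymase-locus genes Cma1, Mcpt1, Mcpt2, Mcpt4 and Mcpt8, the tryptase-locus genes Tpsb2, Tpsab1 and Prss34, and Hdc. All 10 were measured, each by 1 probe set naming that gene alone, out of 19935 genes named in this way. RNA came from Ba/F3 cells, a mouse pro-B-like line that normally depends on interleukin-3 (IL-3), made to express BCR-ABL, the fusion kinase of chronic myeloid leukaemia. One culture was grown with IL-3 and the other without it, both in medium with 10% serum, and both received the ABL kinase inhibitor imatinib at 5 µM for 6 h. Each condition had 1 mouse Gene 1.0 ST array, both titled as live cells, so there was no replicate and no test between the conditions, and no array without imatinib is analysed here. Only the title and source name place the first array with IL-3, while its description says without; if the titles were swapped, every sign below would turn. The source name of the other array can also be read as without imatinib, against the treatment protocol.

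Mast cells and basophils store proteases in secretory granules, bound to the negatively charged chains of the proteoglycan serglycin, and release them with histamine when the IgE receptor is crosslinked. Chymases and tryptases are serine proteases, whereas Cpa3 is a zinc carboxypeptidase that removes residues from the carboxyl end. In mice, IL-3 is a growth factor for bone marrow-derived mast cells and for basophils.

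The deposited numbers are logs, taken as log2, with a baseline subtracted for each probe set. Neither the log base nor the baseline is given in the sources used here. A value therefore says how far an array lay above or below that baseline and not how abundant a transcript was, and no gene can be called present or absent, or higher than another gene. Each difference is the value with IL-3 less the value without it, so that the baseline cancels. The median difference over all 19935 genes was 0.04 and the scaled median absolute deviation, a robust measure of spread, was 0.17. Of all genes, 40.1% had a difference below 0 and 59.8% above 0 on the deposited scale, and 48.9% and 51.1% with a loess trend subtracted. Probe sets of the same gene differed from each other with a pooled SD of 0.14 over 998 genes with several probe sets. That SD holds no variation between cultures, and with 1 array a condition the precision of every value is limited.

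Cpa3 and Cma1 were lower with IL-3, and the other 8 genes differed by less than 1.2-fold. Of the 10 genes, 2 were at least 2-fold lower and 0 were at least 2-fold higher, against 0.657% and 0.441% of all genes (1.1% for both directions together); since the genes were chosen with these differences known, the share is a description. The median difference of the 10 was 0.03, close to the median of all genes. On the deposited scale 6 differences were above 0, like 59.8% of all genes, and 4 below. After median centring, quantile normalization or subtraction of a loess trend, 5 were above 0 and 5 below. Cpa3 and Cma1 thus stood apart from the other proteases and from Hdc.

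**Figure D1:**
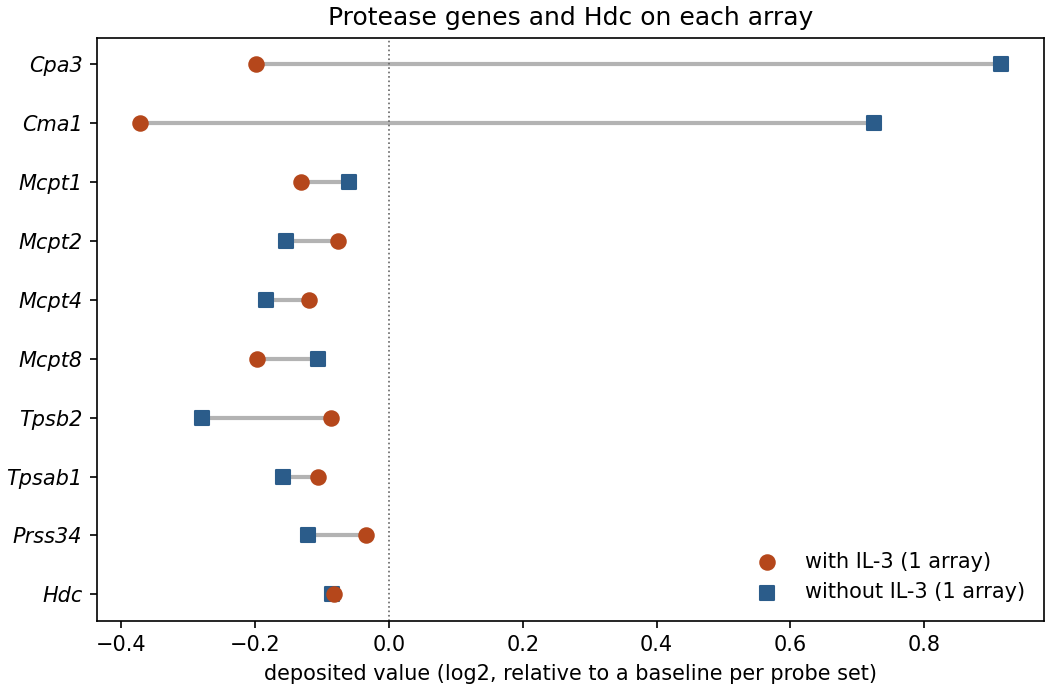
Deposited value (log2, relative to a baseline per probe set) of each of the 10 genes on the array with IL-3 (circles) and the array without IL-3 (squares), 1 array each, with a grey line joining the 2 values. Cpa3 and Cma1 lie above the baseline without IL-3 and below it with IL-3, while the other genes lie between -0.28 and -0.03 on both arrays.

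Cpa3 encodes mast cell carboxypeptidase A, which mast cells and basophils share. Its value was -0.20 with IL-3 against 0.91 without it. Cpa3 was thus just below its baseline on the first array and well above it on the second. The difference of -1.11 is 2.16-fold lower with IL-3. In the order of all differences Cpa3 stood 96th from the lowest, so that 0.477% of genes had a lower one.

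Cma1 encodes the α-chymase of mouse connective tissue mast cells, mMCP-5. Its value was -0.37 with IL-3 against 0.73 without it. As for Cpa3, the array without IL-3 was above the baseline, but here the array with IL-3 lay further below it. The difference of -1.10 is 2.14-fold lower with IL-3, 105th from the lowest. The genes lie on different chromosomes, 3 and 14. The differences of Cpa3 and Cma1 were 0.02 apart, but these 2 genes are set side by side because both passed 2-fold. Whether they are regulated together was not tested. In mice the mMCP-5 and Cpa3 proteins depend on each other for storage in the granule, which is a property of the proteins and was not measured here. Both differences were just past the 2-fold limit, on which the count of 2 therefore rests.

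The 250 bases before the annotated start of transcription are shown for Cpa3 and Cma1, the genes that were lower with IL-3, and for Mcpt1 and Mcpt4, chymase-locus genes that differed little. They are from RefSeq on GRCm38.p6, read 5′ to 3′ on the strand of the gene, with matches to a GATA motif in capitals.
Cpa3, chr3:20242182-20242431, minus strand: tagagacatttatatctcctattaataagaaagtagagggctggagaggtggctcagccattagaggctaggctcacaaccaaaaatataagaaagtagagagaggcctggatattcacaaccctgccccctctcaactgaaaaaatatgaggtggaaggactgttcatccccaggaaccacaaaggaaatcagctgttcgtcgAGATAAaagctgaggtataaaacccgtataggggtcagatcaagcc
Cma1, chr14:55944676-55944925, minus strand: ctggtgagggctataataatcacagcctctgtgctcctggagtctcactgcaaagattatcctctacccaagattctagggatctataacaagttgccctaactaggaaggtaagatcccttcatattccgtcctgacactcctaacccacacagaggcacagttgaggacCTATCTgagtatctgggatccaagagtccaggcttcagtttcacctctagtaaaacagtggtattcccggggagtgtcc
Mcpt1, chr14:56017714-56017963, plus strand: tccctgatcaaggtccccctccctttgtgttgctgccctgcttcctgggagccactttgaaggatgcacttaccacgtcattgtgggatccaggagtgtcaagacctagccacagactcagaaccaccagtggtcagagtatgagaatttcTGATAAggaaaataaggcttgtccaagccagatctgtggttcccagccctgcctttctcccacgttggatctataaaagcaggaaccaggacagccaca
Mcpt4, chr14:56062311-56062560, minus strand: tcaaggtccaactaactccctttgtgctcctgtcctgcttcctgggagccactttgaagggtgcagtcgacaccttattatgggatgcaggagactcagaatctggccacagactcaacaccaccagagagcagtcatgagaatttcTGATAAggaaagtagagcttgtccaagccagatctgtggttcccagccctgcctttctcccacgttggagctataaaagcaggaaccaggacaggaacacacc
The motif is that of GATA factors, of which GATA2 is needed for mast cell development, searched as GATA with A or T before it and A or G after it, on both strands. Each of these windows held 1 match. It began 46 bases before the start in Cpa3, 79 bases in Cma1, where it reads on the opposite strand, 99 bases in Mcpt1 and 103 bases in Mcpt4. The Mcpt1 and Mcpt4 windows, which had 208 identical bases over 254 aligned positions (81.9%), carry the same match in the same stretch. RefSeq windows were at hand for 7 of the 10 genes, and 6 of the 7 held the motif, with Mcpt8 as the exception, against 26.5% of all 32851 windows. The motif was thus found both before genes past 2-fold and before genes within it. A TATA box, searched as TATAAA on both strands, began 31, 28 and 32 bases before the start of Cpa3, Mcpt1 and Mcpt4 and was matched by 12.4% of all windows. Cpa3 had a second match, on the opposite strand, that began 242 bases before the start. The STAT motif TTCNNNGAA was found in 0 of the 7 windows and in 7.02% of all windows. The E-box forms CACGTG and CATGTG, which MITF, a mast cell transcription factor, can bind, were found in 1 of the 7, that of Prss34, against 17.6%. A match is a string of letters and not a shown binding site.

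Mcpt1 and Mcpt2 encode the β-chymase-type proteases of mucosal mast cells, and Mcpt4 the β-chymase of connective tissue mast cells. Mcpt1 had a value of -0.13 with IL-3 against -0.06 without it, a difference of -0.07. Mcpt2 had -0.08 with IL-3 against -0.15 without it, a difference of 0.08. Mcpt4 had -0.12 with IL-3 against -0.18 without it, a difference of 0.06. These 3 differences went both ways and were smaller than the probe set SD. Mcpt8, a granzyme-like protease that marks mouse basophils, had -0.20 with IL-3 against -0.11 without it. Its difference of -0.09 was the lowest after those of Cpa3 and Cma1 and was also within the probe set SD. Mcpt1, Mcpt2 and Mcpt4 are close relatives, so a probe set may pick up more than one of them and their values are uncertain.

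The 5 chymase-locus genes lie within one stretch of chromosome 14. In the RefSeq order of GRCm38.p6 they run as Cma1, Mcpt1, Mcpt2, Mcpt4 and Mcpt8, with Cma2 and Mcpt9, for which no value was used, among them. Cma1 is at the outer end of the cluster. Beyond it lies Sdr39u1, which encodes an oxidoreductase-like protein, with 1.33 with IL-3 against 0.70 without it, a difference of 0.63 in the opposite direction. At the far end, Ctsg, the cathepsin G gene of neutrophils and mast cells, differed by 0.02, and the granzyme genes Gzme and Gzmd by 0.17 and 0.08. In the wider list of 8 measured cathepsin G and granzyme genes of this locus, 0 were past 2-fold in either direction, against 1.1% of all genes. The list median was 0.01, which turned to between -0.008 and -0.001 under the other scalings. Their differences ran from -0.33 for Gzmb, the granzyme B gene of cytotoxic cells, to 0.17 for Gzme. Cma1 was therefore the one gene of the cluster among those measured that passed 2-fold.

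**Figure D2:**
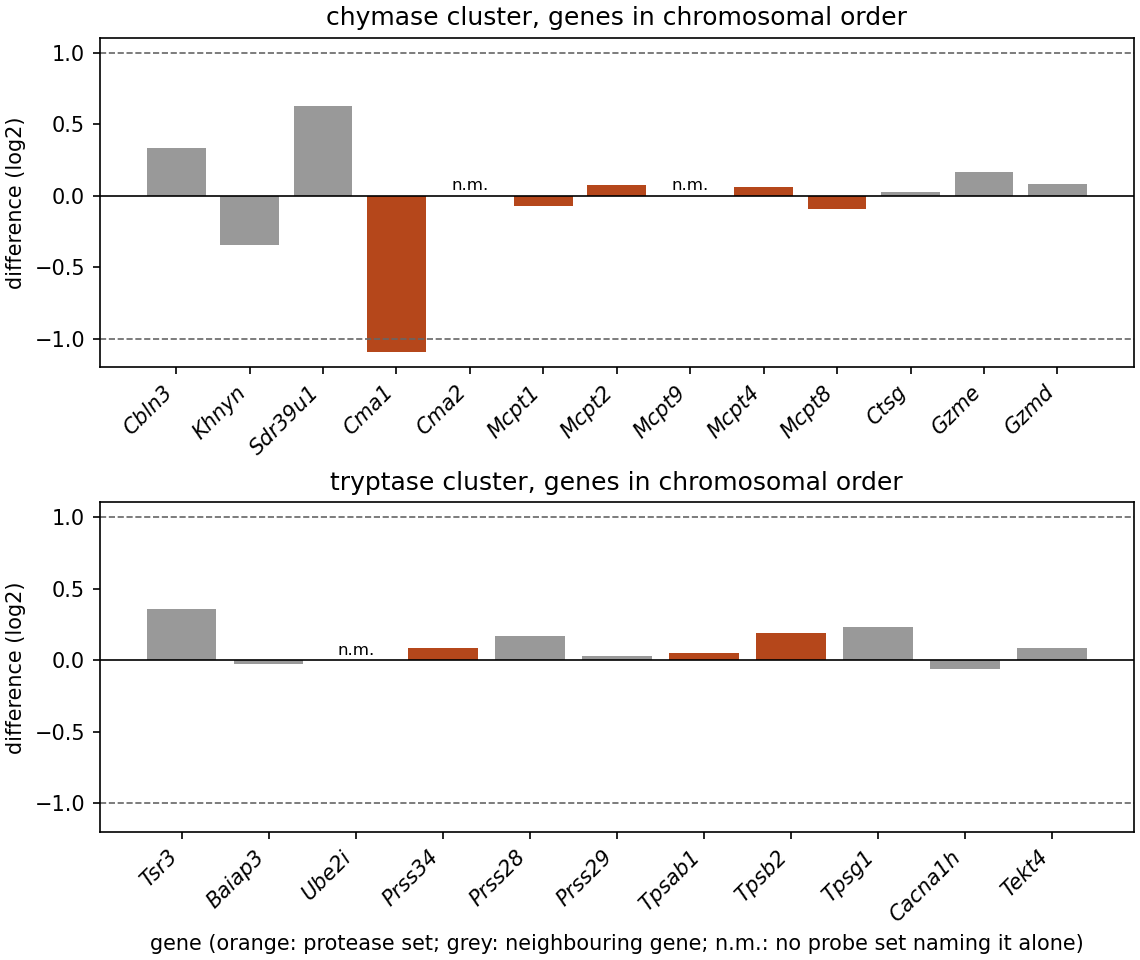
Difference (log2, with IL-3 minus without IL-3, 1 array each) for genes in chromosomal order around the chymase cluster (above) and the tryptase cluster (below), with the 10-gene set in orange, neighbours in grey and dashed lines at 2-fold. Cma1 reaches -1.10 and the other genes of both clusters stay within the dashed lines.

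Tpsb2 and Tpsab1 encode the mouse tryptases mMCP-6 and mMCP-7. Tpsb2 had a value of -0.09 with IL-3 against -0.28 without it. It was 1.14-fold higher with IL-3, a difference of 0.19, and was the one gene of the 8 whose difference was larger than the probe set SD of 0.14. It was larger than those of 79.9% of all genes, so that it did not stand out. Tpsab1 had -0.11 with IL-3 against -0.16 without it, a difference of 0.05. RefSeq lists Tpsab1 as a transcribed pseudogene in the C57BL/6J genome. The 2 tryptase genes are similar in sequence, so the probes of one may pick up the other and both values are uncertain.

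Prss34, which encodes the basophil and mast cell protease mMCP-11, had -0.03 with IL-3 against -0.12 without it, a difference of 0.09. It lies on chromosome 17 near the tryptase genes, with the serine protease genes Prss28 and Prss29 between them. Of the 10 measured genes in the list of further serine proteases of this chromosome, 0 passed 2-fold, against 1.1% of all genes. All 10 had a difference above 0, as did 59.8% of all genes, from 0.02 for Prss33 to 0.28 for Prss22, with a median of 0.11. After quantile normalization or after a loess trend was subtracted, 9 of the 10 were above 0, the exception being Prss33. All 10 were under 1.5-fold, and the tryptase-locus members of the set, at 0.05 to 0.19, lay in the same range.

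Hdc encodes the enzyme that turns histidine into histamine, in mast cells, basophils and some other cells. It had -0.08 on both arrays, and its difference of 0.003 was the smallest in size of the 10. Under the other scalings that difference was between -0.03 and -0.01, so it has no direction. Among 8 measured genes of histamine transport, breakdown and receptors, 0 passed 2-fold, against 1.1% of all genes, and the median was 0.06. Hrh1, the H1 receptor gene, had the lowest difference at -0.51, and Hrh2, the H2 receptor gene, the highest at 0.22. Slc18a2, the vesicular transporter that loads histamine into granules, was chosen after its value was seen. It had 0.03 with IL-3 against 0.53 without it, a difference of -0.50, lower like Cpa3 and Cma1 but by less than 2-fold. Hnmt, which methylates histamine and was also named after its value was seen, had -0.08 on both arrays. The transporter gene thus lay apart on the 2 arrays, while the genes of the synthesising and the methylating enzyme were level. This contrast is a description of picked genes, from a list with 3 genes below 0 and 5 above. Level values do not show whether Hdc or Hnmt was expressed.

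**Figure D3:**
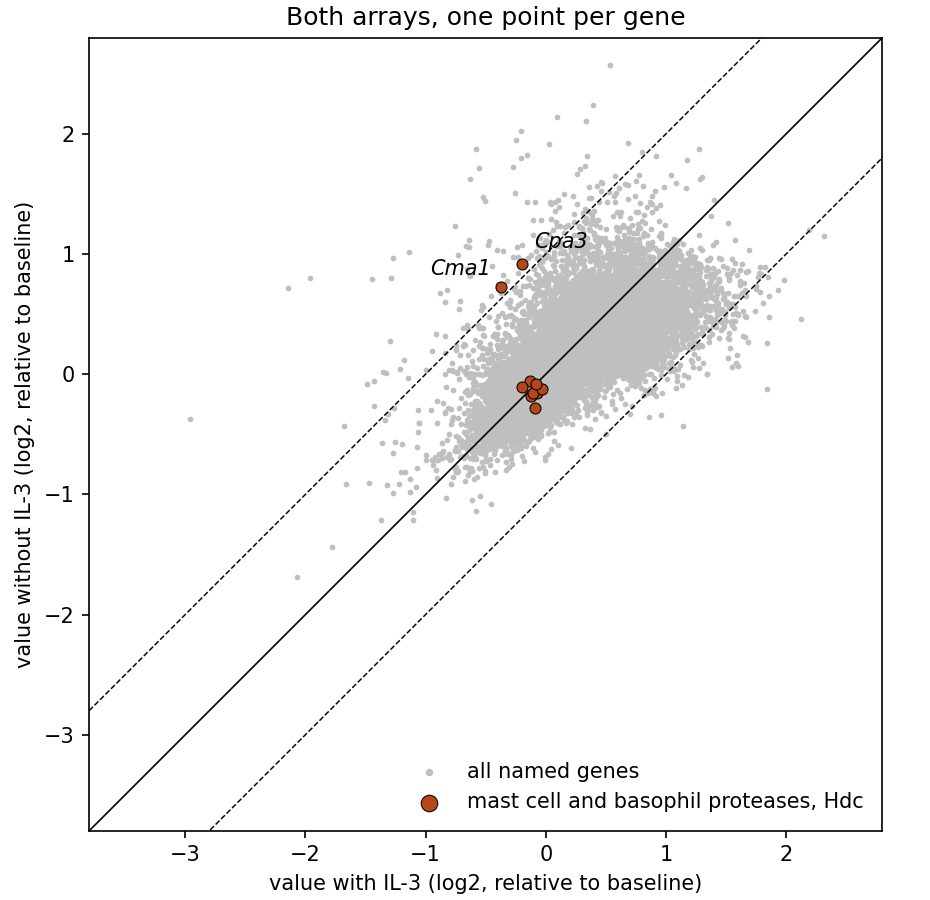
Value with IL-3 (horizontal) against value without IL-3 (vertical), both log2 relative to a baseline per probe set, for 19935 named genes (grey) and the 10 genes of the set (orange), with a solid line at equality and dashed lines at 2-fold. Cpa3 and Cma1 lie beyond the upper dashed line and the other 8 lie together near the line of equality, just below 0 on both axes.

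Genes that store, process and release granule contents were examined next, from lists written with earlier results of these data known. Of 12 measured genes for granule storage and protease processing, 9 were below 0 and 3 above, against 40.1% of all genes below 0, with a median of -0.25 against 0.04 over all genes. In this list 0 were at least 2-fold lower and 1 was at least 2-fold higher, against 0.657% and 0.441% of all genes. That gene was Serpinb1a, an inhibitor of neutrophil-type serine proteases, at 2.51-fold higher (1.65 with IL-3 against 0.32 without it). With the loess trend subtracted its difference fell from 1.33 to 1.00, just at the 2-fold limit. Srgn, the serglycin gene, was named after its value was seen. It had -0.16 with IL-3 against 0.17 without it, a difference of -0.33. Ctsc, the peptidase that activates chymases and granzymes, had 0.73 with IL-3 against 0.74 without it, a difference of -0.01, and was named in the same way. Cd63, a membrane protein of granules and lysosomes, had the lowest difference of the list at -0.89 (0.77 with IL-3 against 1.66 without it), and passed 2-fold only with the loess trend subtracted, at -1.33.

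Of 14 measured genes of granule exocytosis, 13 were below 0, against 40.1% of all genes, with a median of -0.19, and the same 13 to 1 split was found under each scaling, where the share of all genes below 0 was at most 48.9%. At least 2-fold higher were 0, against 0.441% of all genes, and 1 gene was at least 2-fold lower, against 0.657%. This was Scin, which encodes the actin-severing protein scinderin, with -0.63 with IL-3 against 1.62 without it, or 4.76-fold lower. Rab27b, a GTPase that docks granules, was the single gene above 0, at 0.38, while its relative Rab27a, named after its value was seen, differed by -0.46.

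In the receptor list, 2 of 14 measured genes were at least 2-fold lower, against 0.657% of all genes. At least 2-fold higher were 0, against 0.441% of all genes. The list had 11 genes below 0, against 40.1% of all genes, and a median of -0.24. Fcer1a, the IgE-binding chain of the high-affinity receptor, had -0.58 with IL-3 against 1.88 without it, 5.49-fold lower. Cd33, a sialic acid-binding receptor of myeloid cells, had -1.18 with IL-3 against 0.12 without it, 2.46-fold lower. The further receptor genes here were named after their values were seen. Ms4a2, the β chain of the IgE receptor, had -0.30 with IL-3 against 0.62 without it, a difference of -0.92. Cd200r3, an activating receptor of mast cells and basophils, differed by -0.88 (0.40 with IL-3 against 1.29 without it), and by -1.14 with the loess trend subtracted. Fcer1g, the signalling chain, differed by -0.51. Kit, the stem cell factor receptor on which mast cells depend, differed by 0.18 (-0.20 with IL-3 against -0.39 without it), which is the highest difference of the list. Of the 3 IgE receptor genes, only Fcer1a thus passed 2-fold.

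Among 17 transcription factors of mast cells and basophils, 0 passed 2-fold on the deposited scale, against 1.1% of all genes. The list had 12 genes below 0, against 40.1% of all genes, 5 above and a median of -0.13. Bhlhe40, a basic helix-loop-helix repressor, had the lowest difference at -0.92 (0.35 with IL-3 against 1.27 without it), which was just past 2-fold after quantile normalization and was -1.16 with the loess trend subtracted. Lmo2, a partner of GATA and TAL1 complexes, had the highest at 0.64 (0.97 with IL-3 against 0.33 without it). Gata2, Mitf and Gata1, named after their values were seen, differed by -0.21, -0.31 and 0.16. These GATA factors and MITF thus stayed within 2-fold and did not all go in one direction.

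Of 11 measured mast cell and basophil cytokine genes, 2 were at least 2-fold lower, against 0.657% of all genes. At least 2-fold higher were 0, against 0.441% of all genes. The list had 7 genes below 0, against 40.1% of all genes, and 4 above, with a median of -0.02. The chemokine gene Ccl3 differed 4.45-fold, on the lower side (-1.14 with IL-3 against 1.02 without it) and the cytokine gene Il6 2.21-fold, also lower (0.02 with IL-3 against 1.17 without it). In the list of enzymes that make prostaglandins and leukotrienes, 0 of 8 passed 2-fold, against 1.1% of all genes, and the median was -0.02. Alox5ap, which presents arachidonic acid to 5-lipoxygenase, had the lowest difference at -0.56, and Pla2g4a, which releases arachidonic acid, the highest at 0.32. Of 12 measured proteases and granule proteins of other white cells, 0 passed 2-fold, against 1.1% of all genes. Their median was -0.01, with a range from -0.33 for Gzmb to 0.17 for Mpo, the myeloperoxidase gene. Differences past 2-fold among serine and metalloprotease genes of granules were thus limited, in the lists examined here, to Cma1 and Cpa3.

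**Figure D4:**
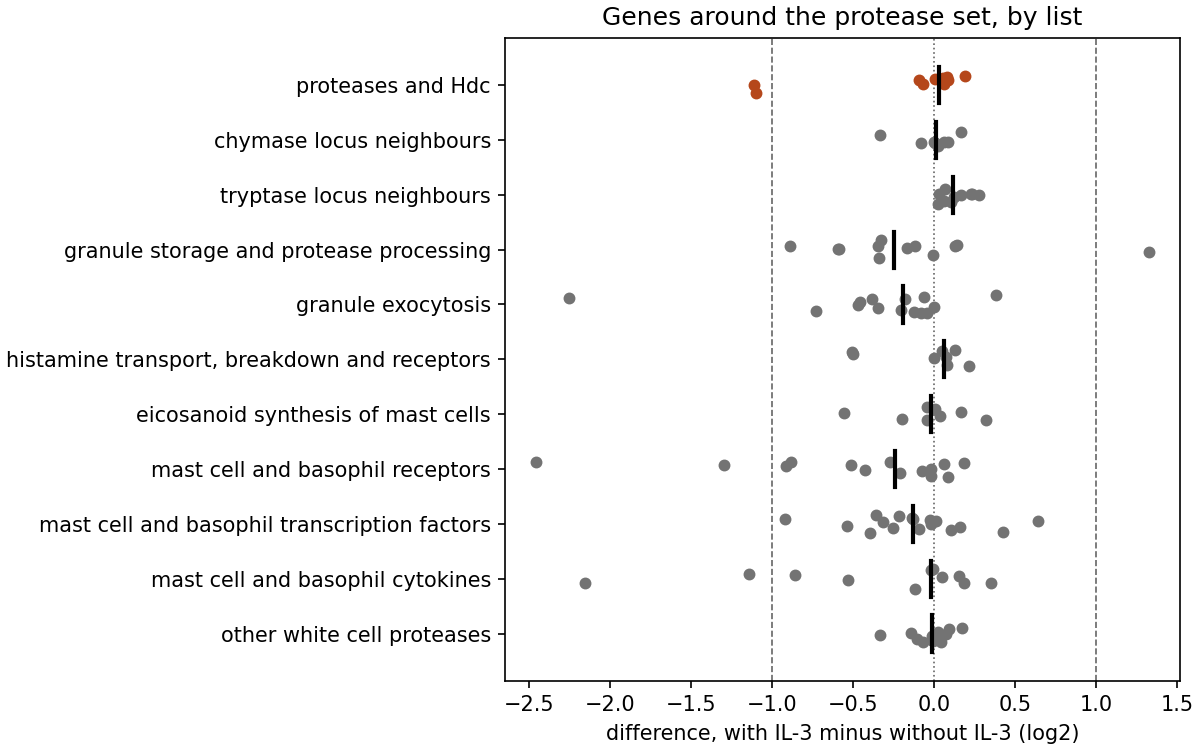
Difference (log2, with IL-3 minus without IL-3, 1 array each) for each measured gene of the 10-gene set (orange) and of 10 further lists (grey), with a black bar at each list's median and dashed lines at 2-fold. The set splits into Cpa3 and Cma1 beyond -1 and 8 genes near 0, and the list medians lie between -0.25 and 0.11.

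Markers of other blood cells did not all move in one direction. Of 7 measured eosinophil markers, 3 passed 2-fold on the lower side (Prg2, Ear6 and Epx), against 0.657% of all genes. In that list 6 were below 0, against 40.1% of all genes, and 1 above, with a median of -0.95. Of 11 neutrophil markers, 2 were at least 2-fold lower, Ngp and Itgam, against 0.657% of all genes. In that list 6 were below 0, against 40.1% of all genes, and 5 above. Their differences ran from -2.87 to 0.38, with a list median of -0.002. Of 10 macrophage markers, 1 was at least 2-fold higher, Fcgr1, against 0.441% of all genes, with 5 below 0 and 5 above. The list median was 0.02, and between -0.01 and 0.002 under the other scalings. B-lineage markers (11 measured, 4 below 0 and 7 above, median 0.05) held 0 genes past 2-fold, against 1.1% of all genes. T cell markers (7 measured, 3 below 0 and 4 above, median 0.01, below 0 under the other scalings) also held 0. Since a baseline was subtracted, no list can be summed to a level and no marker can be said to be at 0. The part of these cell types in the Cpa3 and Cma1 differences was not tested. In RNA pooled from many cells, fewer cells of a type and less RNA per cell cannot be told apart.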

How the data were processed

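RNA from 2 Ba/F3 cultures was measured on 1 array each and grouped by sample title. Per the labels' protocols, biotin-labelled sense-strand cDNA was hybridised to mouse Gene 1.0 ST arrays. The log2 values are the authors' own, processed before they were deposited by subtracting a baseline from each of 28815 probe sets, as the values show. Their median was -0.03 on the array with IL-3, against -0.05 on the other, and 1760 probe sets held equal and opposite values (sum within 1e-05 of 0). No source used here gives the background correction, summarisation, normalization, log base or baseline arrays. That a higher value means more RNA is assumed.

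A probe set took its gene name from the platform annotation where this gave 1 symbol (21780 probe sets, of which 21689 matched the RefSeq gene table of GRCm38.p6). Of several probe sets of a gene, the one highest on average over both arrays stood for it. Differences were counted past 2-fold, without filter or test. The 10 genes and all lists were chosen with earlier results of these data known. Genes named from a list are those past 2-fold, or otherwise its lowest and highest. Neighbours in the chromosomal order are named by position. Cd63 and Rab27b, the lowest and the highest of lists that hold a gene past 2-fold, were chosen after their values were seen. Others chosen in this way are marked in the text. Alternatives were median centring, quantile normalization, subtraction of a loess trend (statsmodels 0.14.6, fraction 0.3), natural logs, other probe set rules, a filter and a 1.5-fold limit. The counting was also run on simulated data with planted shifts larger than the differences of Cpa3 and Cma1, so that run does not bear on genes just past 2-fold. Promoter windows came from the RefSeq promoter table.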

Additional observations from a re-analysis of the deposited data

How the results depend on the processing

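The count of 2 genes past 2-fold on the lower side, Cpa3 and Cma1, and of 0 on the higher side held under median centring, quantile normalization, loess trend subtraction, natural logs, the mean over probe sets, the probe set with the lowest mean and a 1.5-fold limit. Over these settings the difference of Cpa3 was between -1.61 and -1.11 and that of Cma1 between -1.58 and -1.10, the values farthest from 0 being those read as natural logs. Because each gene had 1 probe set, the probe set rules could not change a value. Reading the values as natural logs enlarges every difference and a 1.5-fold limit is looser, so neither could lower the count of 2. The share of all genes at least 2-fold lower was 0.682% after median centring, 0.808% after quantile normalization, 1.03% with the loess trend subtracted and 1.88% as natural logs (375 genes, against 131 as deposited), and 2.71% (540 genes) were at least 1.5-fold lower. The genes at least 2-fold higher numbered 88 as deposited, 62 after quantile normalization, 29 with the loess trend subtracted and 419 as natural logs, and 701 were at least 1.5-fold higher. The median of the 10 genes was -0.005 with the loess trend subtracted, so it has no direction. Under the filter that asked both values to be at or above the array median, 0 of the 10 genes were left and no value could be given. No paired analysis was possible because each group had 1 array.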
